A study of Mus musculus with 4 samples.

Results

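The miR-376 family is a group of related miRNAs from neighbouring hairpins. The 5 members described here, mmu-miR-376a-3p, mmu-miR-376b-3p, mmu-miR-376c-3p, mmu-miR-376a-5p and mmu-miR-376b-5p (written without mmu- from here on), were taken by their mature names from the 1029 miRNA names of the deposited table. They hold 310 of its 85704 sequences. The values come from Ago-RP-Seq, in which a peptide of GW182 pulls down the Ago proteins and the small RNAs they hold are sequenced, so a read stands for a small RNA (sRNA) in the RISC. The tissue was cortex plus hippocampus of male C57BL/6J mice (BL6 in the labels, with no treatment or transgene named), at 2 months (2 libraries) and at 18 months (2 libraries). The labels do not tie the libraries to animals, so p-values measure the spread between these libraries only, and a bulk lysate cannot tell fewer cells of a type from less RNA per cell.

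miRNA hairpins fold into double-stranded stems, and ADAR enzymes can change an adenosine in such a stem to inosine, which sequencing reads as G. A change inside the seed, the stretch near the 5′ end that pairs with mRNAs, gives the miRNA another set of targets, and the miR-376 hairpins are among the best known examples in brain. They lie in the imprinted Dlk1-Dio3 region, where a long cluster of miRNAs is made from the maternal chromosome and is mostly expressed in neurons and in development. Each hairpin gives a 3p strand, usually the more abundant one, and a 5p strand.

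The 3 hairpins are shown because the edited positions named below can be read from them. RefSeq places them on the + strand of GRCm38.p6 at chr12:109722718-109722803 (Mir376c), chr12:109723458-109723539 (Mir376b) and chr12:109723781-109723848 (Mir376a). In the GENCODE annotation each is an exon of its own miRNA gene and lies in no other gene of that strand. The predicted miRNA gene Gm25252 overlaps Mir376a on the other strand. Capitals mark the A bases at which G passed 1% of the reads in at least 1 library. Only bases with at least 500 reads in every library were assessed. The 5p arm of Mir376c had too few reads for this, so its A bases are in lower case without having been measured.
Mir376a: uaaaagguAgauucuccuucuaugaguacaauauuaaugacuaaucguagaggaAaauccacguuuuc
Mir376b: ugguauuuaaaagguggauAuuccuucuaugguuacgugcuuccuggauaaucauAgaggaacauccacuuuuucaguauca
Mir376c: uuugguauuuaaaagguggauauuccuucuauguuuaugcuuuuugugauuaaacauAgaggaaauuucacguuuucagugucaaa

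The RefSeq mature sequences of 4 members follow, with bases 2 to 8 in capitals. No 2 of them share a seed.
miR-376a-3p: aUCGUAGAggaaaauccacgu
miR-376b-3p: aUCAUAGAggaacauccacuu
miR-376a-5p: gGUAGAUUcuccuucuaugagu
miR-376b-5p: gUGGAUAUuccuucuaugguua
The 3p strands of miR-376a and miR-376b match at 18 of 21 bases. Those of miR-376a and miR-376c match at 17, and those of miR-376b and miR-376c at 16, with the most abundant deposited read standing for miR-376c-3p.

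The next pairs are the most abundant deposited reads with A and with G at an edited seed base, which is in capitals. Positions are counted from 1 at the 5′ end of the mature strand. The substitutions are A6G in miR-376b-3p (base 109723513 of chromosome 12), A6G in miR-376c-3p (base 109722775), A4G in miR-376a-5p (base 109723789) and A7G in miR-376b-5p (base 109723477).
miR-376b-3p, A: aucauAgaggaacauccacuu
miR-376b-3p, G: aucauGgaggaacauccacuu
miR-376c-3p, A: aacauAgaggaaauuucacgu
miR-376c-3p, G: aacauGgaggaaauuucacgu
miR-376a-5p, A: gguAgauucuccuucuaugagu
miR-376a-5p, G: gguGgauucuccuucuaugagu
miR-376b-5p, A: guggauAuuccuucuaugguu
miR-376b-5p, G: guggauGuuccuucuaugguu

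Levels are CPM, that is, counts scaled to the same total in each library, of libraries of 9067007 to 11389000 reads, in which 3 reads were worth 0.263 to 0.331 CPM. The 6 neuron-enriched miRNAs, miR-124-3p among them, held 171820 to 223570 CPM, so neuronal markers were high in all libraries. Summed marker miRNAs did not overlap between the ages for endothelium (12243 and 11472 CPM at 2 months, 5422 and 8990 at 18 months), vascular smooth muscle (6415 and 6560, then 5033 and 4915) and immune cells (3322 and 3790, then 3051 and 3112). Those for neurons, oligodendrocytes, red blood cells and choroid plexus overlapped. With 2 libraries per age, the values of the ages often separate by chance alone. A lack of overlap in these sums is therefore not read as a change in cell types, and the sums were not tested. What part such differences have in the values below was not tested either. The median log2 change of all 456 miRNAs tested was -0.22 in CPM and -0.01 once the median of ratios set the scale, so a change has to be read against that shift.

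By name, miR-376a-3p was the most abundant member. Its level was 1644 and 1861 CPM at 2 months, against 1805 and 5411 CPM at 18 months. Only the second 18-month library was high, and the ages overlapped.
Most of the excess sat in 1 sequence, the 21-base read with the RefSeq ends shown above, at 661, 864, 969 and 4366 CPM in the same order of libraries. The 22-base read with an added u did not share it, at 787, 767, 639 and 665 CPM. Scarce reads with the shifted seed AUCGUA, at 10.6, 12.1, 16.8 and 49.4 CPM, were also highest in the second 18-month library. The log2 change of miR-376a-3p was 0.84 (SE 0.49, adjusted p = 0.425 by limma), and -0.08 without the 21-base sequence. It was 0.05 without the second 18-month library and 1.63 without the first (adjusted p = 0.931 and 0.348).

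miR-376b-3p measured 1274 and 1144 CPM at 2 months, against 1090 and 1092 CPM at 18 months. Reads named miR-376c-3p were scarcer, at 273 and 280 and then 243 and 234 CPM. Both names were slightly lower in both older libraries, with log2 changes of -0.15 (SE 0.20) and -0.21 (SE 0.20), which is about the shift of all miRNAs (adjusted p = 0.716 and 0.551 by limma).

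The 5p strands were also lower in the older group on average. miR-376b-5p had 769 and 921 CPM at 2 months, against 569 and 635 CPM at 18 months, without overlap (log2 change -0.49, SE 0.21, adjusted p = 0.327 by limma). miR-376a-5p had 151.4 and 222 CPM and then 104 and 155.2 CPM, with overlap (log2 change -0.52, SE 0.30, adjusted p = 0.419). With the replicate number as a block it had an unadjusted p of 0.0351 in limma (adjusted p = 0.28). The partner strand miR-376c-5p was scarce, at 4.20 and 4.39 and then 2.18 and 2.65 CPM, and was not tested because its mean lay under the 10 CPM minimum. Of the 5 members 0 passed an unadjusted p under 0.05 with limma, where 16.2% of all 456 miRNAs did, and 0 passed the adjusted threshold, where 0.219% did. edgeR and DESeq2 each put 1 member, miR-376a-3p, under an unadjusted 0.05 and 0 under an adjusted 0.05.

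The mature names hold only part of the family. The 3 hairpins together have 638 sequences in the table, of which 318 carry the hairpin's name and no mature name. They made up 50.9 and 47.3% of the family's reads at 2 months and 51.8 and 39.0% at 18 months. Over all miRNA hairpins that share was 2.17 to 2.30%. The most abundant of the table's 20461 hairpin sequences without a mature name is the miR-376b-3p read with G at position 6 shown above, at 3063, 2931, 2275 and 3057 CPM, several times the level of its named partner with A (1019, 899, 811 and 823 CPM). miR-376 hairpins held 19.2 to 22.1% of all nameless hairpin reads.

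Within the names, the seed with G was therefore almost missing from the 3p strands. For miR-376b-3p it had 0 reads at position 6, which allows a share of up to 0.031% in the shallowest library, and for miR-376c-3p 0 reads at position 6, which allows up to 0.143%. The name miR-376b-5p held 0 such reads at position 7, which allows up to 0.0596%. The reads with G are in the table without a mature name, so these 0 counts follow from the naming. The limits cover counting error among named reads only and do not bound the share of G in the strands. Among the named reads of miR-376a-5p, however, G at position 4 took 45.8 and 50.9% of the reference and edited seeds at 2 months and 49.0 and 45.7% at 18 months. The edited to unedited ratio was 1 of 80 fitted by name, of which 11.2% passed an unadjusted p under 0.05, and it did not pass (log2 change -0.06, adjusted p = 0.945 by limma). The ages overlapped (two-sided exact permutation test p = 0.6667, with 0.3333 the smallest that 2 against 2 libraries can give).

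To count both forms on the same terms, all reads listed under a hairpin were aligned to it whatever their start and name, a step chosen after the named reads had been seen. Of 638 sequences 632 aligned with at most 2 mismatches outside the last 3 bases. Among the 282 substitutions tabulated over the bases with at least 500 reads in every library, 31 were A read as G. The 5p arm of Mir376c was not among these bases. Of these, 4 reached 5% in all libraries, all of them inside a seed, while none of the other substitutions passed 1% in any library, the highest being 0.425%. Sequences with fewer than 4 reads over the libraries are not in the table, so low shares are undercounted. The reads were not compared with DNA of the same mice.

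miR-376b-3p carried the highest share. G stood at position 6 in 75.2 and 75.6% of the reads at 2 months, against in 76.3 and 79.1% at 18 months, so in all 4 libraries the edited strand was the major form. The 95% Wilson intervals were under 1 point wide, from 74.8 to 75.5% in the first library, at 54652 reads. The means were 75.4% ± 0.313 and 77.7% ± 1.94 (SD, n = 2 each), a difference of 2.28 points without overlap (exact permutation test p = 0.3333). The seed sites of other miRNAs with G in at least 5% of reads, given below, were also higher at 18 months without overlap.

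In miR-376c-3p the share at the matching position was different at the 2 ages. It was 41.3 and 40.8% at 2 months, against 58.2 and 61.9% at 18 months, with intervals of 39.9 to 42.6% in the first library and 60.7 to 63.2% in the last. The means of 41.0% ± 0.313 and 60.1% ± 2.66 (SD, n = 2 each) lie 19.0 points apart, a gap larger than the spread within either age, although the exact permutation test of 2 libraries against 2 cannot go below p = 0.3333. A is thus the more common base in both young libraries and G in both older ones.

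The 5p strands differ from one another. In miR-376a-5p, G at position 4 took 48.8 and 48.6% of the reads at 2 months, against 49.9 and 43.8% at 18 months. In miR-376b-5p, G at position 7 took 8.21 and 8.56% and then 10.2 and 9.65%. The first pair of ages overlaps and the second does not. miR-376a-3p, whose seed has A at the same position 6 as its relatives, showed G there in 0.024 to 0.053% of the reads that start at its first base (7, 5, 10 and 15 reads). This is within the range of substitutions at other bases, while C and U had 0 reads there. Its only base above 1% lies outside the seed, at position 12 (base 109723835 of chromosome 12), with 1.503 and 1.16% at 2 months, against 2.57 and 0.824% at 18 months.

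**Figure D1:**
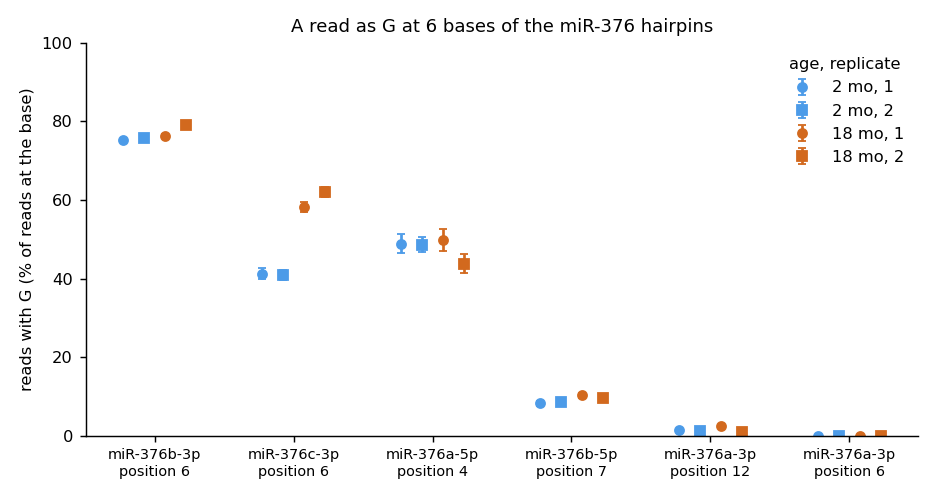
Percent of reads with G at 6 A bases of the miR-376 hairpins (vertical axis) in each library, with 95% Wilson intervals (counting error only) and all read starts included. miR-376b-3p sits at 75.2 to 79.1% in all libraries, and miR-376c-3p at 41.3 and 40.8% at 2 months against 58.2 and 61.9% at 18 months.

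For a test over many sites, each read of the table was assigned by its first 15 bases to a mature miRNA with at most 1 substitution, and the log2 ratio of reads with G to reads with A was fitted with limma for every seed A with a mean of at least 1 CPM of each form. This definition was also chosen after the named reads had been seen. Of 167 such sites, 14 passed an unadjusted p under 0.05 (8.38%) and 0 passed after adjustment. edgeR called 9 and 0 of the same 167.
Position 6 of miR-376c-3p had the smallest p of the 167. Its log2 ratio was higher at 18 months by 1.12 (SE 0.19, unadjusted p = 0.0005, adjusted p = 0.0829 by limma), so it passed the unadjusted threshold of the study and missed the adjusted one. The adjusted p was 0.154 with edgeR and 0.407 with a pseudocount of 0.1, and under 0.05 in 5 of the 9 alternatives, which ranged from 6.13e-07 to 0.407.
The other family sites did not pass. The log2 ratio changed by 0.19 (SE 0.19, adjusted p = 0.79 by limma) for miR-376b-3p position 6, by 0.25 (SE 0.19, adjusted p = 0.728) for position 7 of miR-376b-5p, whose first 15 bases miR-376c-5p shares, and by 0.02 (SE 0.20, adjusted p = 0.969) for miR-376a-5p position 4.

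In levels, the miR-376c-3p form with G was 193 and 193 CPM at 2 months, against 342 and 385 CPM at 18 months. The form with A was 272 and 279 CPM and then 241 and 232 CPM. The edited form was thus higher in both older libraries and the unedited form lower, with log2 changes of 0.91 (SE 0.26, unadjusted p = 0.00396, adjusted p = 0.253 by limma) and -0.22 (SE 0.26, adjusted p = 0.80). Among the 2247 forms tested in this way 9.79% had an unadjusted p under 0.05. Summed over both forms, miR-376c-3p was 467 and 474 CPM at 2 months, against 585 and 619 CPM at 18 months, a log2 change of 0.35 (SE 0.20, adjusted p = 0.395 by limma), where the named reads alone gave -0.21. The named value is also about 0 on other scales, at -0.003 after rescaling and 0.008 with edgeR. The summed value is 0.57 after rescaling (SE 0.21, unadjusted p = 0.029, adjusted p = 0.261 by limma). It thus passed the unadjusted threshold after rescaling and not in CPM (unadjusted p = 0.119 by limma).

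For miR-376b-3p neither form passed the test. Reads with G were 3894 and 3585 CPM at 2 months, against 3561 and 4185 CPM at 18 months (log2 change 0.05, SE 0.24, adjusted p = 0.957 by limma). Reads with A were 1240 and 1114 CPM and then 1062 and 1070 CPM (log2 change -0.14, SE 0.25, adjusted p = 0.867). With the edited reads counted, miR-376b-3p had 4638 to 5271 CPM in the 4 libraries, against 1090 to 1274 CPM by name, and passed miR-376a-3p in all libraries but the second at 18 months. The G form of miR-376a-5p was 42.4, 72.5, 38.2 and 42.9 CPM and that of miR-376b-5p 66.7, 83.7, 63.2 and 64.7 CPM, in the order of the libraries.

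**Figure D2:**
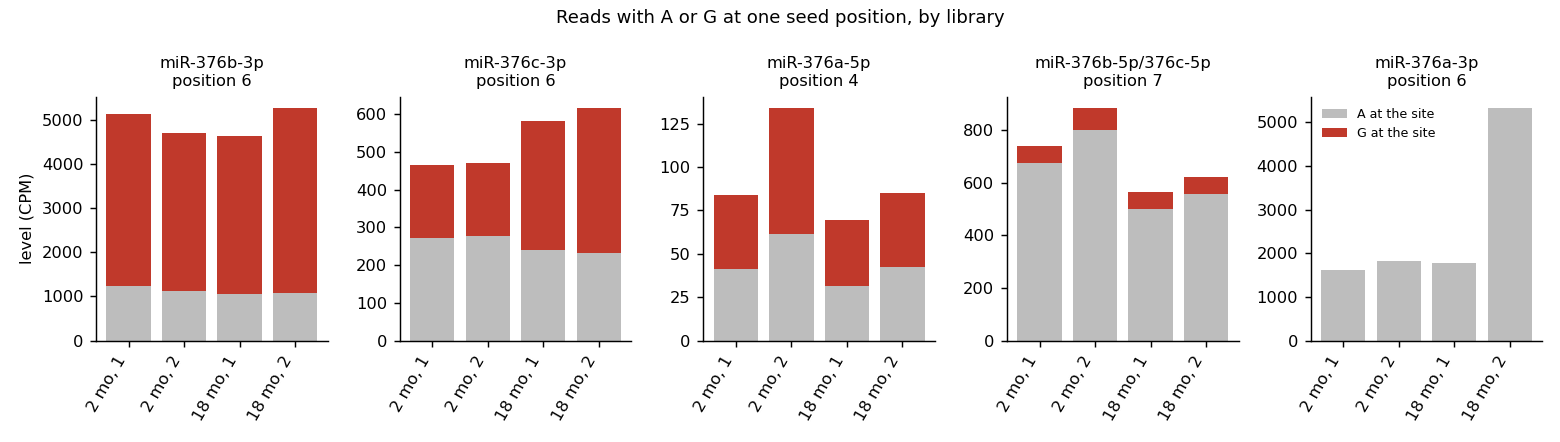
Level in CPM (bars from 0) of reads with A (grey) and with G (red) at 1 seed position of each member, by age and replicate, for reads assigned by their first 15 bases. In miR-376c-3p the red part is 193 and 193 CPM at 2 months, against 342 and 385 CPM at 18 months, while miR-376a-3p shows no visible red part and 1 high library.

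The 3′ end of the reads was compared next, since the rule did not use it. For miR-376b-3p, the 20-base read was G at position 6 in 93.5, 90.7, 93.1 and 93.5% of the cases, above the 73.7 to 78.8% of the 21-base read in every library. The 20-base form with G stood at 204 and 194 CPM at 2 months, against 446 and 304 CPM at 18 months. Reads with a non-templated a at the end were at 79.5 to 89.9%, and those with an added u at 68.2 to 80.0%.
For miR-376c-3p the 21-base read carried most of the counts, and its share was 39.8 and 40.3% at 2 months, against 57.3 and 62.2% at 18 months. The 20-base read gave 47.5 and 48.3% and then 74.5 and 60.3%. The read ending in c, at 41.98 to 63.1% and 64.6 to 70.9%, and the reads with an added u or a were also without overlap between the ages, at 13.5 CPM or less for each form. Such few reads from the same 4 libraries add no support to the values of the 21-base read, and no end was tested beyond the exact permutation test, whose smallest p is 0.3333.

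**Figure D3:**
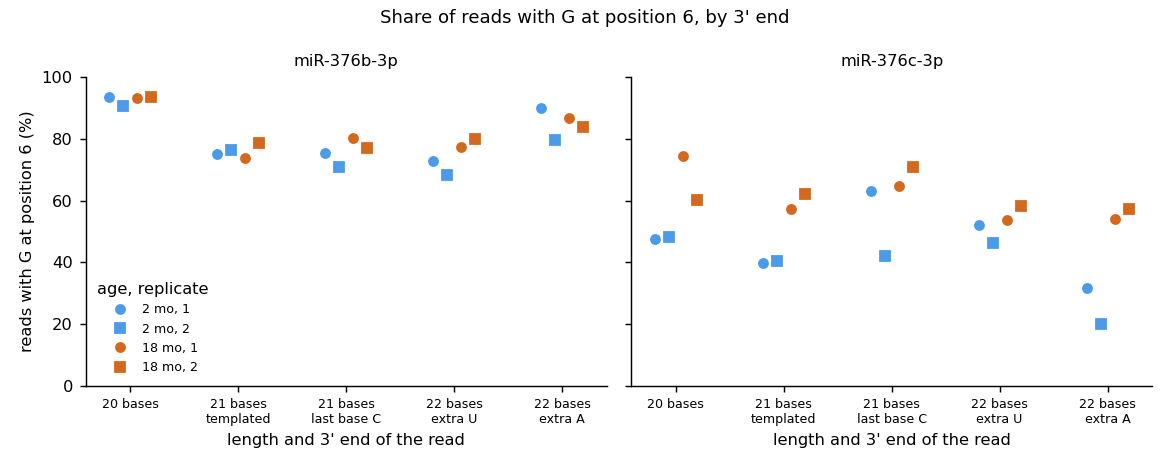
Percent of reads with G at position 6 (vertical axis) for 5 lengths and 3′ ends (horizontal axis) of miR-376b-3p and miR-376c-3p, 1 point per library. The 20-base read of miR-376b-3p lies at 90.7 to 93.5% in all libraries, and the older libraries lie above the younger ones for all 5 ends of miR-376c-3p.

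At the 5′ end, miR-376a-5p had the most ragged start of the members. Its reference seed, GUAGAU, took 27.8% of its named reads over all libraries and the edited seed, GUGGAU, 26.0%. Reads that begin 1 base later have the seeds UAGAUU (24.1%) and UGGAUU (9.65%), and those that begin 2 bases later AGAUUC (3.74%) and GGAUUC (6.21%). Over all reads of the hairpin, G took 50.5, 54.0, 53.9 and 50.4% of reads with the RefSeq start. It took 35.7, 31.5, 33.3 and 23.8% of those starting 1 base later, and 66.0, 62.3, 66.2 and 60.4% of those starting 2 bases later. In each library the later start by 1 base thus had the lowest share of these 3 starts.
The other members began more uniformly. The reference seed held 98.2% of the named reads of miR-376a-3p, 97.3% of miR-376b-3p, 99.3% of miR-376c-3p and 87.0% of miR-376b-5p, which also had 9.92% in GGAUAU, a start 1 base later, and 2.62% in GUGGAU, a start 1 base earlier. The last seed has the same letters as the edited seed of miR-376a-5p. Reading the A at position 4 of miR-376b-3p as G would likewise give the seed of miR-376a-3p. Along the hairpin G stood there in 0.0749 to 0.127% of the reads, the level of other substitutions.

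Of the 48 seed forms of the 5 names, 23 were tested, and 6 had an unadjusted p under 0.05 with limma, 3 of them higher at 18 months, against 10.2% of all 2248 forms. None had an adjusted p under 0.05. The 3 higher ones were minor shifted seeds of miR-376a-3p, each under 1% of its reads, and their largest value lies in the second 18-month library. The lower ones were UGGAUU and GGAUUC of miR-376a-5p (log2 changes -0.73 and -0.92, SE 0.29 and 0.40) and GUGGAU of miR-376b-5p (-0.86, SE 0.33). UGGAUU measured 17.5 and 21.2 CPM at 2 months, against 9.84 and 12.7 CPM at 18 months.

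The study rates a 6mer seed (positions 2 to 7) by the viability of cells that received it, as the mean of 3 mouse cell lines in percent of the control, where a low value means a toxic seed. In the 3p strands the seed with G had the lower value. It was 66.8% for UCAUAG and 44.2% for UCAUGG (miR-376b-3p), and 78.1% for ACAUAG and 46.4% for ACAUGG (miR-376c-3p). It was also lower for UGGAUG than for UGGAUA of miR-376b-5p, 71.7 against 93.0%, but higher for GUGGAU than for GUAGAU of miR-376a-5p, 50.2 against 38.8%. The seed of miR-376a-3p, UCGUAG, has 82.5%.
Reads of the family were nearly the whole source of the letters of these edited seeds in the RISC. They held 97.3 to 97.9% of all UCAUGG reads, 96.4 to 97.6% of ACAUGG, 98.1 to 98.2% of UGGAUG and 93.3 to 97.9% of GUGGAU. Not all GUGGAU reads were edited, since miR-376b-5p reads that start 1 base earlier have these letters by their reference. Such reads held 18.7, 31.3, 12.3 and 13.6 CPM, of 64.1, 107, 53.7 and 59.1 CPM for the whole seed, in the order of the libraries. miR-3082-3p has ACAUGG as its reference seed, and miR-5123 and miR-376c-5p have the reference seeds of miR-376a-5p and miR-376b-5p. By mean level, UCAUGG ranked 38 among all seeds of the table and UCAUAG 81.

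Weighted by CPM, the mean seed viability of the 5 names was 77.7 and 78.2% at 2 months, against 78.0 and 80.1% at 18 months, with overlap (exact permutation test p = 0.667). Over all reads of the 3 hairpins, edited forms included, it was 61.4 and 62.9% and then 61.4 and 66.8%. For miR-376b-3p it was 66.985, 66.981, 66.969 and 66.928% by name and 49.7, 49.6, 49.5 and 48.9% with the edited reads. For miR-376c-3p the names gave 78.1, 78.0, 78.0 and 78.0%. With the edited reads the values were 65.0 and 65.2% at 2 months, against 59.6 and 58.4% at 18 months, a difference of -6.11 points without overlap (exact permutation test p = 0.3333). Since each seed has 1 fixed value, this difference restates the share of G at position 6 and is not a further result on age. The mean of all sequences of the table was 57.7 and 57.9% at 2 months, against 58.1 and 58.4% at 18 months, also without overlap but higher.

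Set among the seed A bases of all miRNAs, the family held 3 of the 7 highest shares. Of 419 sites with a mean of at least 100 CPM of both forms together, 7 had G in at least 5% of reads in all 4 libraries (1.67%). miR-376b-3p position 6 ranked 2, miR-376c-3p position 6 ranked 3 and miR-376b-5p position 7 ranked 7. The other sites are given at 2 and then 18 months. Position 7 of miR-3099-3p had 80.3 and 74.8%, then 82.7 and 82.6%. Position 5 of miR-411-5p had 35.7 and 34.3%, then 37.2 and 36.1%. Position 5 of miR-379-5p had 15.4 and 16.4%, then 18.0 and 18.8%. Position 3 of miR-467a-5p, whose first 15 bases miR-467b-5p shares, had 10.8 and 11.4%, then 15.005 and 13.6%. All 7 sites were thus higher at 18 months without overlap, so this direction was not particular to the family. In 3 of the 7 the seed with G is also the reference seed of another miRNA, miR-3083b-5p for miR-3099-3p, miR-1943-3p for miR-467a-5p and miR-3082-3p for miR-376c-3p. Position 4 of miR-376a-5p, at 50.4 to 55.0%, fell under the 100 CPM minimum with a mean of 93.1 CPM. By name and seed letters alone, 1 of 448 sites reached 5% (0.223%), miR-467a-5p, and 0 of the 8 member sites with enough reads. The 0 follows from the naming, since the reads with G at the family sites ranked above carry no mature name. A read as C or U stayed at or under 0.0566% of the reads at every family seed A.

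**Figure D4:**
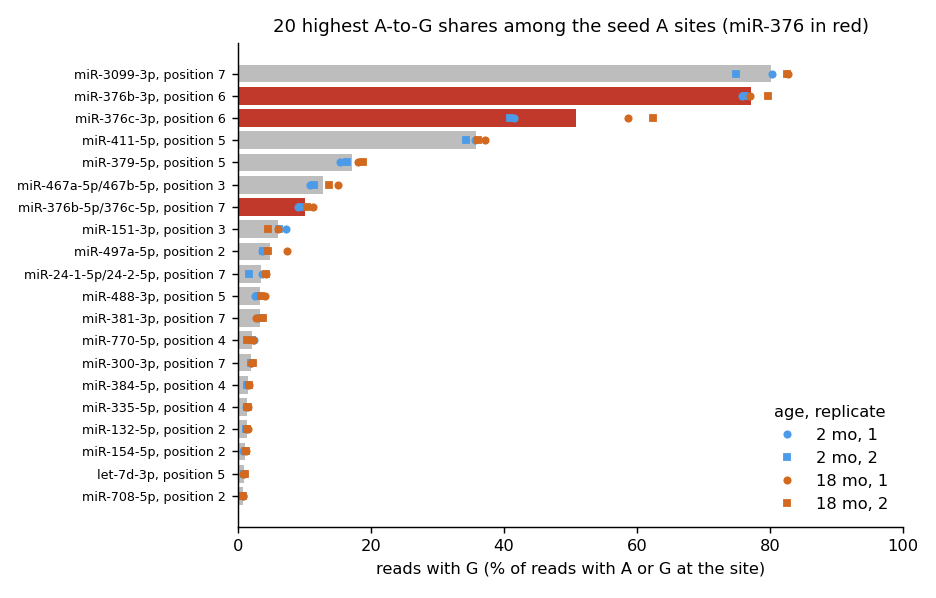
Mean percent of reads with G (bars from 0) and the value of each library (points) for the 20 highest of 419 seed A sites, reads assigned by their first 15 bases, miR-376 in red. Family sites rank 2, 3 and 7, with means of 77.2, 50.9 and 10.02%.

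The rest of the distal Dlk1-Dio3 cluster, a list of 64 names without miR-376, gives the neighbourhood of the family. Of its 47 tested miRNAs, 13 were lower and 1 higher at 18 months at an unadjusted p under 0.05 with limma, against 12.1% lower and 4.17% higher of all miRNAs, and 0 passed after adjustment. Its median log2 change was -0.42, against -0.22 over all miRNAs tested. With rescaled libraries 7 were lower and 1 higher, and the median was -0.21 against -0.01. The 5 with the largest change included miR-487b-3p, from 3831 and 4022 CPM to 1919 and 1777 CPM (log2 change -1.09, SE 0.20, adjusted p = 0.0968 by limma), miR-412-5p (-1.05), miR-299a-5p (-1.01), miR-409-5p (-0.90) and, in the other direction, miR-3072-3p (1.32). The 5 members had a median of -0.21.
The summed 3p members, at 3191, 3284, 3138 and 6738 CPM, had the profile over the 4 libraries closest to those of miR-29c-3p, miR-205-5p, miR-455-5p, miR-99a-3p and miR-29a-5p, with root mean square differences of 0.07 to 0.18 on the log2 scale. The sum counts named reads only, without the nameless reads with G. miR-29c-3p measured 5651, 6280, 5817 and 11356 CPM. That it too was high in the second 18-month library follows from its choice by profile. None of these 5 is on the distal list.

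**Figure D5:**
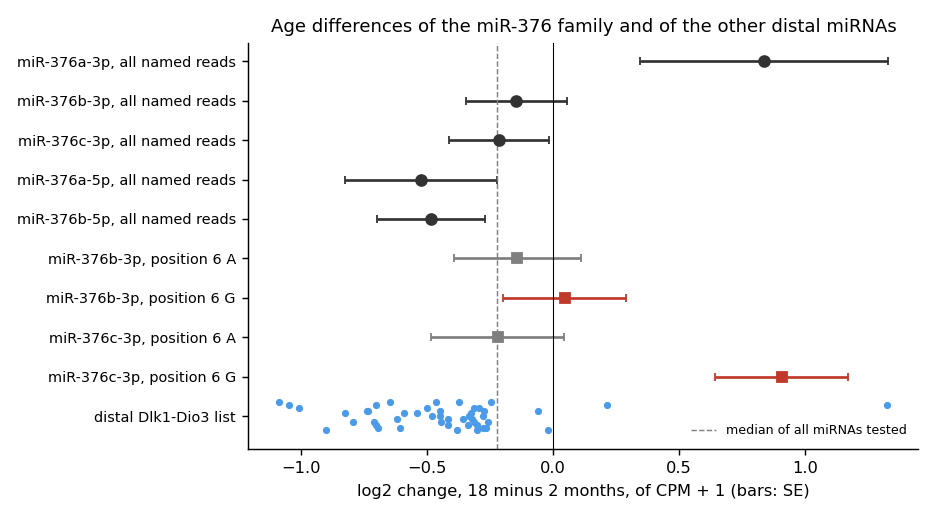
Log2 change of CPM + 1 between 18 and 2 months (horizontal axis, bars are SE) for the 5 members by name, for the A and G forms of miR-376b-3p and miR-376c-3p, and for 47 miRNAs of the distal list (1 point each). The dashed line is the median of all miRNAs tested, -0.22, and the G form of miR-376c-3p lies at 0.91 while its A form lies at -0.22.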

How the data were processed

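The authors trimmed and de-multiplexed the reads (the submitters' processing notes name Trim Galore), dropped rare sequences, named the others by a BLAST search of mouse small RNA lists and deposited CPM values per sequence and library. Versions of the trimming and BLAST tools are not given in the sources used here. They also deposited a viability score per 6mer seed, the mean of 3 mouse cell lines in percent of the control. CPM values were divided by the worth of 1 read, and 100% of the nonzero values came out as whole reads. Intervals are 95% Wilson intervals and cover counting error only.

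Two-sided limma fits of log2(CPM + 1) had age as their single term. They took mature names averaging 10 CPM or more, seed forms (reads of 1 name with 1 seed) of at least 1 CPM, and log2 ratios of edited to unedited reads of at least 1 CPM each. Ratios used no trend. A call is an unadjusted p under 0.05, the study's threshold, or a Benjamini-Hochberg adjusted p under 0.05 over all items of the fit. Single values were set side by side with exact permutation tests. The first 15 bases of a read, with at most 1 substitution, assigned 91.0 to 92.1% of the CPM to mature miRNAs, and this definition and the hairpin alignment were added after seeing the data. RefSeq names matched 869 of 1020 single names.

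The members and all lists were chosen with earlier results of these data known. The miRNAs named are the members, miRNAs that share their seeds, sites with over 5% G, the 5 nearest profiles, 8 miRNAs edited in brain and the 5 distal miRNAs with the largest change. The fits were also run on simulated reads with known changes, as a check of the code only. The changes and the spread were set by hand, so that run does not measure how well the fits work on these libraries. Alternatives were other pseudocounts, filters and scalings, edgeR and DESeq2 on the recovered reads, the replicate number as a block and each library left out. Software was Python 3.11.15 and R 4.3.3 with DESeq2 1.42.0, edgeR 4.0.16 and limma 3.58.1.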

Additional observations from a re-analysis of the deposited data

How the results depend on the processing

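The 74 miRNAs called at an unadjusted p under 0.05 became 43 with a minimum mean of 100 CPM and 125 with no filter, and 55 to 74 with 1 library left out. Of the 5 members 0 were called, and 1 was called in 5 settings. It was miR-376a-3p with DESeq2, edgeR, edgeR with the replicate block and without the first 18-month library (range 0 to 1), and miR-376a-5p with the replicate block in limma. Called seed forms went from 230 to 120 with a minimum of 10 CPM. Called ratios by name went from 9 to 3 with a minimum of 10 CPM per form, 5 with a pseudocount of 0.1, 14 of 167 when reads were assigned by 15 bases, and 4 to 10 with a library left out, the lowest without the first 18-month library. Those 14 became 9 with edgeR, 8 of 56 with a minimum of 10 CPM per form, 7 with a pseudocount of 0.1, 29 with a pseudocount of 5 and 12 to 16 with a library left out. Of the distal list 13 were lower, but 6 with DESeq2, 5 with edgeR, 7 with edgeR and the replicate block, 7 after rescaling and 6 to 11 with a library left out, the lowest without the second 18-month library. The count of lower distal miRNAs rose to 17 with the replicate block in limma and to 18 of 64 with no filter on low values. Sites over 5% by name numbered 1, and 6 at a threshold of 1%, 5 with a minimum of 10 CPM and 7 with all reads. The cause of these differences was not tested beyond the changed number of items.

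The share of G over the 4 libraries depended on which reads are counted. For miR-376a-5p it was 47.9% by name, 52.5% by 15 bases and 47.8% along the hairpin. The edited seed GUGGAU alone was 25.9% of all its named reads, a value that leaves out G in reads with a shifted start. By 15 bases and along the hairpin it was 77.2 and 76.5% for miR-376b-3p, 50.9 and 50.5% for miR-376c-3p, 10.02 and 9.16% for miR-376b-5p and 0.0373 and 0.0356% for miR-376a-3p, each 0 by name.

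Replicate numbers recur at both ages in the labels, but nothing says that they mark shared mice, and deviations of same-numbered libraries correlated at 0.18. The replicate block gave 79 called miRNAs and lowered the adjusted p of miR-376c-3p position 6 from 0.0829 to 0.00933. That ratio was 1.01 to 1.24 with a library left out, with adjusted p values of 0.0921 and 0.135 without the first and second 18-month library.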

Other observations

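Of the 8 miRNAs known to be edited in brain that are not members, several carried G in the seed at lower shares than miR-376b-3p, with reads assigned by their first 15 bases. Position 3 of miR-99b-3p had G in 14.6 to 17.8% of the reads at a mean of 71.8 CPM. Position 3 of miR-151-3p had 4.47 to 7.17%, position 2 of miR-497a-5p 3.63 to 7.41% and position 7 of miR-381-3p 2.64 to 3.69%. Position 7 of miR-421-3p had 0.485 to 0.633%.

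The G form of miR-376a-3p at position 12, outside the seed, stood at 23.5 and 20.6 CPM at 2 months, against 44.3 and 41.8 CPM at 18 months, without overlap (log2 change 0.94, SE 0.28, unadjusted p = 0.00494, adjusted p = 0.274 by limma). Unlike the unedited reads of this miRNA, at 1623, 1834, 1775 and 5324 CPM, it was not high in the second 18-month library alone.

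Among the 14 seed sites with an unadjusted p under 0.05 for the ratio of G to A, position 2 of miR-487b-3p came second after miR-376c-3p position 6. Its log2 ratio was higher at 18 months by 0.84 (SE 0.19, adjusted p = 0.213 by limma). Position 7 of miR-191-5p and position 3 of miR-200c-3p had lower ratios at 18 months, and the others of the 14 had higher ones. Position 5 of miR-379-5p and of miR-411-5p had log2 ratios higher by 0.26 and 0.11 and did not pass.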
